A study of Mus musculus with 4 samples.

Results

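The 9 genes described here mark lymphocytes, the B cells and T cells of adaptive immunity, in adult mouse kidney. They were chosen by symbol from 54232 genes of a transcript table, and all 9 were found under a single identifier each. They are Cd79a, Cd79b and Ms4a1 for B cells, Cd3d, Cd3e, Cd4 and Cd8a for T cells, Ptprc for all leukocytes and Nkg7 for cytotoxic cells. Immunoglobulin genes were not included. The mice were 60 days old, either wild type (WT) or heterozygous for a LacZ allele of the transcription factor gene Tshz3 (Tshz3+/LacZ, here HET). Poly(A) RNA was sequenced in 2 libraries per genotype, each from RNA of several kidneys mixed in equal shares, with 3 kidneys stated for a group. The labels call the preparations of a genotype independent but do not say whether they hold different kidneys, so a p-value measures only how these pools vary, and some of that variation may be technical. The sources used here name neither sex nor strain, nor how the LacZ allele was built. The series asks how loss of 1 Tshz3 copy affects kidney function.

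B cells recognise antigen through a surface immunoglobulin that signals through the paired chains CD79A and CD79B, encoded by Cd79a and Cd79b. T cells recognise peptide on MHC molecules through the T cell receptor, which signals through the CD3 chains, among them those of Cd3d and Cd3e. The coreceptors CD4 and CD8 bind MHC class II and class I. A healthy kidney holds few lymphocytes, scattered in the interstitium and around vessels, whereas lymph nodes near the kidney are filled with them.

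Promoter sequence was at hand for 6 of the 9 genes (RefSeq, GRCm38.p6, the assembly also called mm10). These were Cd79a, Cd3d, Cd3e, Cd8a, Nkg7 and Ptprc, the last with 2 start sites, so that 7 windows of 250 bases before a start site were searched on both strands for 5 motifs of lymphoid regulators. The letters were ATGCAAAT (octamer), CAGGTG (E-box), TGTGGT (RUNX motif) and GAGGAAGT (PU.1 motif), beside the palindromic EBF motif, and no matches overlapped. Distances are counted to the first base of the match. An E-box lay 112 bases before the start of Cd3d, which is the same in RefSeq and in the deposited table. Another lay 154 bases before the RefSeq start of Cd79a, which is 116 bases inside the gene as deposited, and so 38 bases before the deposited start; 17.2% of all 32851 promoters held one. A RUNX motif lay 83 bases before the RefSeq start of Nkg7, which is 65 bases inside the gene as deposited, and so 18 bases before the deposited start; 14.0% of all promoters held one. The octamer (1.60% of all promoters), the EBF motif (0.779%) and the PU.1 motif (2.44%) had no exact match in the 7 windows. Sites with other letters were not searched for, and the EBF motif was searched only as a strict palindrome. The lack of a match thus does not show that a promoter, that of Cd79a included, lacks a site for these regulators. The RefSeq starts of Ptprc are 403 and 582 bases inside the gene as deposited, so both of its windows lie wholly within the deposited gene. The 3 windows with a match are shown 5′ to 3′ in the direction of transcription, only up to the base before the deposited start, with the match in capitals; in Cd3d and Nkg7 it reads as the reverse complement. They are chr7:24897247-24897380 on the plus strand for Cd79a, chr9:44981536-44981785 on the plus strand for Cd3d and chr7:43436888-43437072 on the plus strand for Nkg7.
Cd79a: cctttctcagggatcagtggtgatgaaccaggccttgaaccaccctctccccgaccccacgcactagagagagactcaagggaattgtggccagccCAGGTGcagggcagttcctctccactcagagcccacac
Cd3d: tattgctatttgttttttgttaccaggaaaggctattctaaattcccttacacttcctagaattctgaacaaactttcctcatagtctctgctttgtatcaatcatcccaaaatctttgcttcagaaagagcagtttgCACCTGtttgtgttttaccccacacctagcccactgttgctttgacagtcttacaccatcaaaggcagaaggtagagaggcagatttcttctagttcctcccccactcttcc
Nkg7: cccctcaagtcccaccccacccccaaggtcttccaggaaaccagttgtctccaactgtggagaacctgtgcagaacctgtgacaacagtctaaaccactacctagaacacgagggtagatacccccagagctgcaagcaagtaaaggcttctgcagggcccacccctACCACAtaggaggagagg

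Libraries held between 62631750 and 70792042 reads, recovered from the TPM (a level per exon length that sums to 1000000 in a library). Levels below are TPM scaled between libraries, and every interval given for a single library is an exact 95% Poisson interval that covers counting error only. The kidney label was borne by the thick ascending limb gene Umod, which was at 1858 to 2730 TPM in the 4 libraries. Tshz3 was at 0.653 and 0.723 TPM in WT and at 0.833 and 0.760 TPM in the libraries labelled HET (log2 fold change 0.13, limma adjusted p = 0.790), so the targeted gene did not separate the labels by a lower level in HET, and every direction rests on the labels. Over all genes together, counting error was small beside the difference between pools of 1 genotype (chi-square over its degrees of freedom, 77.9 for WT and 82.1 for HET). This does not hold for each marker gene. The 95% counting interval of the ratio of WT replicate 2 to WT replicate 1 included 1 for Cd3d (0.792 to 2.45), Cd3e (0.796 to 2.15), Cd4 (0.845 to 1.63) and Nkg7 (0.646 to 1.65). It excluded 1 for Cd79a, Cd79b, Ms4a1, Cd8a and Ptprc. HET replicate 2 stood apart from the other 3 libraries in lymphocyte genes, and the fold changes of the 9 genes are therefore also given without it.

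All 9 marker genes were highest in HET replicate 2, and 7 of them were there at least 2 times as high as in any other library. Of all 22356 tested genes, 27.4% were highest in that library and 1.53% reached such a 2-fold margin. HET replicate 1, the other library of the same genotype, lay near the WT libraries for most of them and was the lowest library for Ms4a1, Cd8a and Nkg7. The 3 B cell genes had the widest margins, of 6.25 times for Cd79a, 5.02 times for Cd79b and 14.2 times for Ms4a1 over the highest other library. The T cell genes followed with 2.19 times (Cd3d), 2.91 times (Cd3e) and 3.03 times (Cd4), while Cd8a (1.17 times) and Nkg7 (1.12 times) had the smallest. No marker gene reached such a 2-fold margin in WT replicate 1, WT replicate 2 or HET replicate 1, where 0.322%, 0.183% and 0.425% of all tested genes did. In bulk tissue, a different number of cells of a type and a different amount of RNA per cell cannot be told apart. In a pool, high values in 1 kidney and moderately high values in all of them cannot be told apart either.

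**Figure D1:**
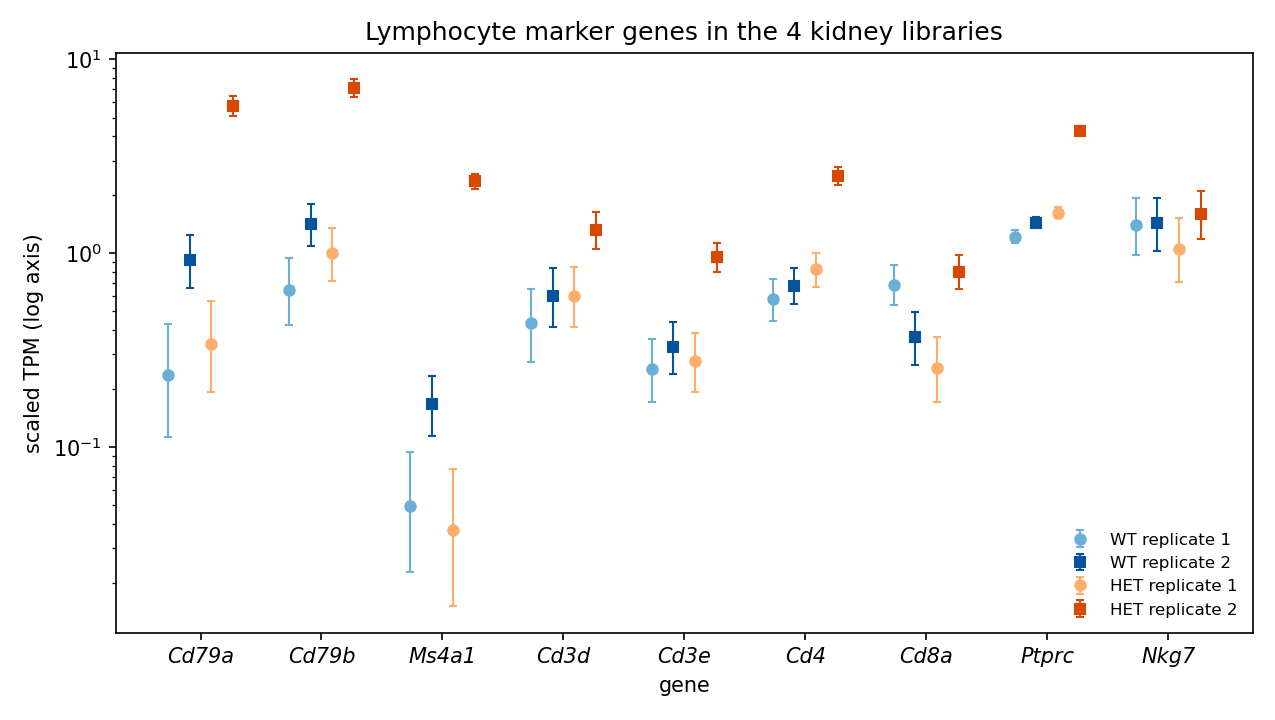
Scaled TPM (log axis) of the 9 marker genes in each of the 4 libraries, with WT replicates in blue and HET replicates in orange; bars are 95% Poisson intervals of the reads, for counting error only. HET replicate 2 is the highest point for each gene, by 14.2 times for Ms4a1 and by 1.12 times for Nkg7.

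Cd79a (ENSMUSG00000003379, chromosome 7, 24897381 to 24902197, mm10) was at 0.235 TPM in WT replicate 1 and 0.917 TPM in WT replicate 2, from 10 and 43 reads. It was at 0.342 TPM in HET replicate 1 and 5.73 TPM in HET replicate 2, from 15 and 292 reads. HET replicate 1 thus lay between the WT libraries, and the genotypes overlapped. Both WT libraries differed from each other by 3.90 times (95% interval of the ratio for counting error 1.93 to 8.70), and both HET libraries by 16.8 times (9.997 to 30.3). The log2 fold change, on the log2(TPM + 0.5) scale used throughout, was 1.17 ± 1.19 (SE; limma adjusted p = 0.738).

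Cd79b (ENSMUSG00000040592, chromosome 11, 106311341 to 106314762) was at 0.647 and 1.41 TPM in WT replicates 1 and 2, and at 0.997 and 7.09 TPM in HET replicates 1 and 2. The order of the libraries was that of Cd79a, its partner chain in the receptor, and again the genotypes overlapped. Limma gave a log2 difference of 1.19 ± 0.94 (SE; limma adjusted p = 0.684). The ratio of Cd79b to Cd79a was 2.75 and 1.54 in the WT libraries, 2.92 in HET replicate 1 and 1.24 in HET replicate 2.

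Ms4a1 (ENSMUSG00000024673, chromosome 19, 11249675 to 11266241) encodes CD20, a surface protein of mature B cells. It had 9 and 33 reads in the WT libraries, 7 in HET replicate 1 and 508 in HET replicate 2. Its level was therefore 0.0499 and 0.166 TPM in WT against 0.0376 and 2.35 TPM in HET. It was the lowest of the 9 genes in WT replicate 1, WT replicate 2 and HET replicate 1, but not in HET replicate 2, where Cd8a was the lowest. HET replicate 2 was 62.5 times HET replicate 1 (95% interval for counting error 30.1 to 156). Limma gave a log2 difference of 1.03 ± 0.95 (SE; limma adjusted p = 0.716), and as most levels lie below the pseudocount of 0.5 TPM it understates the ratio. Ms4a1 entered the test through WT replicate 2 and HET replicate 2, since 10 reads at the median depth were needed in 2 libraries.

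The T cell receptor chains differed less between the libraries. Cd3d (ENSMUSG00000032094, chromosome 9, 44981786 to 44987339) was at 0.434 and 0.599 TPM in WT and at 0.603 and 1.32 TPM in HET, from 23, 35, 33 and 84 reads. HET replicate 1 and WT replicate 2 differed by 1.01 times (95% interval for counting error 0.607 to 1.67), so that the lack of overlap between the genotypes rested on less than counting error. Limma gave a log2 difference of 0.48 ± 0.27 (SE; limma adjusted p = 0.622). Cd3e (ENSMUSG00000032093, chromosome 9, 44998740 to 45009627) was at 0.252 and 0.327 TPM in WT and at 0.277 and 0.953 TPM in HET, with overlapping genotypes and a log2 difference of 0.43 ± 0.31 (SE; limma adjusted p = 0.647). Exons of Cd3e overlap the antisense gene Gm48719, and no source used here says whether counting used the strand, so reads of both cannot be told apart.

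The coreceptor genes did not follow each other. Cd4 (ENSMUSG00000023274, chromosome 6, 124864692 to 124888221), carried by helper T cells, was at 0.578 and 0.678 TPM in WT and at 0.823 and 2.49 TPM in HET, from 68, 88, 100 and 352 reads. HET exceeded WT in each library, by 1.21 times between HET replicate 1 and WT replicate 2 (95% interval for counting error 0.902 to 1.64), and limma gave a log2 difference of 0.82 ± 0.40 (SE; limma adjusted p = 0.622). Cd8a (ENSMUSG00000053977, chromosome 6, 71373427 to 71379173), carried by cytotoxic T cells and by some dendritic cells, was at 0.688 and 0.367 TPM in WT and at 0.256 and 0.802 TPM in HET. Each genotype thus had a low and a high library, and limma gave a log2 difference of -0.034 ± 0.30 (SE; 95% confidence interval -0.79 to 0.72; limma adjusted p = 0.972). The ratio of Cd4 to Cd8a was 0.840 in WT replicate 1, 1.85 in WT replicate 2, 3.22 in HET replicate 1 and 3.11 in HET replicate 2. Here both HET libraries were alike, although their levels of both genes were not.

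Ptprc (ENSMUSG00000026395, chromosome 1, 138062861 to 138175708) encodes CD45, a phosphatase on the surface of all leukocytes, macrophages included. With 649 and 845 reads in WT and 890 and 2717 reads in HET it was the most precisely measured of the 9 genes. Its level was 1.22 and 1.43 TPM in WT against 1.61 and 4.24 TPM in HET. HET replicate 1 was 1.13 times WT replicate 2 (95% interval for counting error 1.02 to 1.24), and HET replicate 2 was 2.63 times HET replicate 1 (2.44 to 2.84). Limma gave a log2 difference of 0.80 ± 0.39 (SE; limma adjusted p = 0.622).

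Nkg7 (ENSMUSG00000004612, chromosome 7, 43437073 to 43438249) encodes a granule membrane protein of natural killer cells and cytotoxic T cells. It was at 1.39 and 1.43 TPM in WT and at 1.05 and 1.60 TPM in HET, from 29 to 51 reads, and both WT libraries lay between the HET libraries. Limma gave a log2 difference of -0.081 ± 0.22 (SE; 95% confidence interval -0.61 to 0.45; limma adjusted p = 0.897). Nkg7 and Cd79a lie on the chromosome of Tshz3, at 6.66 and 11.8 Mb from it.

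Read per length, the WT means ran from 0.108 ± 0.0819 TPM for Ms4a1 through 0.290 ± 0.0533 TPM for Cd3e to 1.32 ± 0.155 TPM for Ptprc and 1.41 ± 0.0283 TPM for Nkg7 (SD, n = 2). Between them stood Cd3d (0.517 ± 0.116 TPM), Cd8a (0.528 ± 0.227 TPM), Cd79a (0.576 ± 0.482 TPM) and Cd4 (0.628 ± 0.0707 TPM), which did not differ from each other beyond the spread of the pools, and then Cd79b (1.03 ± 0.541 TPM; SD, n = 2). Ptprc and Nkg7 at the top also lay within their spread. The sum of the 3 B cell genes was 1.36 and 2.69 times the sum of Cd3d and Cd3e in the WT libraries, 1.56 times in HET replicate 1 and 6.66 times in HET replicate 2. HET replicate 2 thus differed in the balance of B cell to T cell transcripts as well as in their level.

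Between genotypes, 0 of the 9 genes passed the test (limma, adjusted p below 0.1), where 0.00895% of all tested genes did. Likewise 0 had an unadjusted p under 0.05 in either direction, where 1624 of all 22356 tested genes did. With higher levels in HET, 3.81% of all tested genes had such a p. With limma-voom and with the replicate number as a block 0 of 9 passed either threshold as well. The log2 fold change was above 0 for 7 of 9 genes, against 51.1% of all tested genes, with a median of 0.80 against 0.0067. Without overlap, HET was above WT for 3 of 9 (Cd3d, Cd4 and Ptprc; 21.8% of all genes) and below WT for 0 (23.1%). Without HET replicate 2 the median of the 9 was -0.023, 4 of 9 were above 0 and 0 passed (0.291% of all genes did). Cd79a (-0.28), Ms4a1 (-0.17) and Cd3e (-0.023) then changed sign. Cd79b was then at 0.016, Cd3d at 0.12, Cd4 at 0.23, Ptprc at 0.21, Cd8a at -0.43 and Nkg7 at -0.30. Without HET replicate 1, which leaves HET replicate 2 as the lone HET library and assumes that it varies like the WT pools, the median was 1.38 and all 9 were above 0. Ms4a1 then passed (log2 fold change 2.23 ± 0.22, SE; limma adjusted p = 0.0134), where 0.224% of all genes did. The authors' deposited table of 97 genes lists 0 of the 9.

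**Figure D2:**
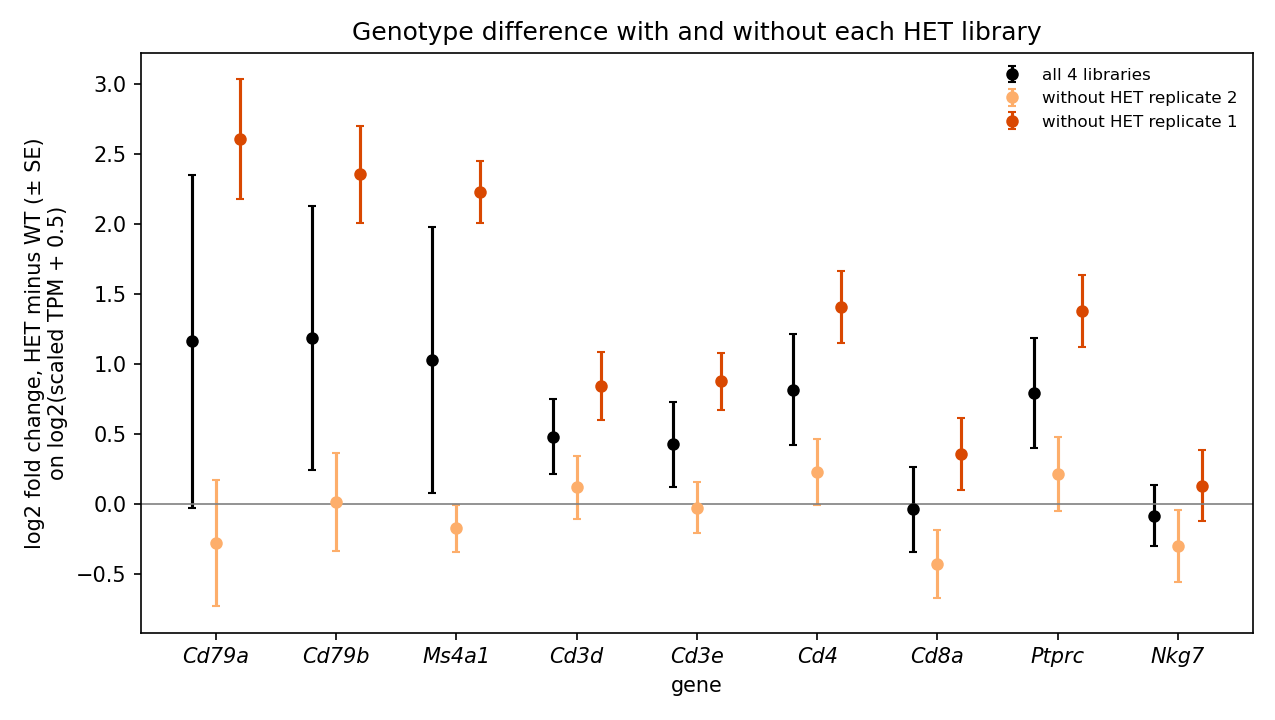
Log2 fold change of each marker gene, HET minus WT, on log2(scaled TPM + 0.5), with SE bars from limma, for all 4 libraries (black), without HET replicate 2 (light orange) and without HET replicate 1 (dark orange). Without HET replicate 2 the points lie between -0.43 and 0.23, and without HET replicate 1 between 0.135 and 2.61.

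Further B cell genes showed the pattern of the 3 B cell markers. Of 23 tested, 19 were highest in HET replicate 2, 16 of them at least 2 times the highest other library. Their median, relative to the WT mean on the log2 scale, was -0.11 and 0.11 in the WT libraries, -0.044 in HET replicate 1 and 1.58 in HET replicate 2. Cd22, an inhibitory receptor, was at 0.190 and 0.0924 TPM in WT and at 0.112 and 3.01 TPM in HET, and Pax5, the transcription factor that keeps B cell identity, at 0.0697 and 0.0632 TPM and at 0.0188 and 1.36 TPM. Exons of Cd22 and Pax5 overlap antisense genes. Not all genes of the list followed: Cd72, whose exons overlap those of the kinase gene Tesk1, was at 18.03 to 21.2 TPM in the 4 libraries, and Blnk, an adaptor of receptor signalling, at 3.35 to 4.37 TPM. In the fit of all libraries 0 of the 23 genes passed (limma adjusted p below 0.1) or had an unadjusted p under 0.05. The median log2 fold change was then 0.72. Without HET replicate 1 the median log2 fold change was 1.58, and without HET replicate 2 it was -0.044. Each of these fits leaves a single HET library.

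Genes of the T cell receptor and its signalling were higher in HET replicate 2 by less than the B cell genes. Of 23 tested, 22 were highest in that library, 16 by at least 2 times, and the median stood 1.05 (log2) above the WT mean there and 0.0065 in HET replicate 1. Lck, the kinase bound to the coreceptors, was at 1.29 and 1.14 TPM in WT and at 1.11 and 3.97 TPM in HET. The receptor constant region gene Trbc2 was at 1.19 and 1.48 TPM and at 1.63 and 6.53 TPM, and Ccr7, the receptor that guides lymphocytes into lymph nodes, at 0.416 and 0.377 TPM and at 0.302 and 2.33 TPM. Zap70, the kinase that binds the phosphorylated CD3 chains, was at 0.298 and 0.312 TPM in WT and at 0.632 and 0.946 TPM in HET, above WT in both HET libraries. In the fit of all libraries, Zap70 was the only gene of these 23 with an unadjusted p under 0.05 (log2 fold change 0.67, limma adjusted p = 0.622). In that fit 0 of the 23 passed. Of all tested genes, 3.81% had such a p with higher levels in HET. The median log2 fold change of the 23 was 1.05 without HET replicate 1 and 0.0065 without HET replicate 2. Trac, the constant region of the alpha chain, went another way, at 27.5 and 25.7 TPM in WT and at 8.52 and 20.2 TPM in HET (log2 fold change -0.98; limma adjusted p = 0.622). The log2 fold change of Trac was -1.58 without HET replicate 2 and -0.39 without HET replicate 1.

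Genes of helper and regulatory T cells and of cytotoxic and natural killer cells differed less by library. Of 15 tested cytotoxic genes, 12 were highest in HET replicate 2 but 0 by 2 times, and the medians relative to the WT mean were 0.20 in HET replicate 1 and 0.26 in HET replicate 2. The chemokine gene Ccl5 was at 2.14 and 1.94 TPM in WT and at 3.53 and 3.99 TPM in HET (log2 fold change 0.74; limma adjusted p = 0.622). Of 10 tested helper and regulatory genes, 6 were highest in HET replicate 2. Tnfrsf18, which encodes the costimulatory receptor GITR, was at 1.67 and 1.77 TPM in WT and at 3.38 and 4.54 TPM in HET (log2 fold change 0.99; limma adjusted p = 0.622), and its exons overlap the antisense gene Gm16008. In both lists 0 passed (limma), and 2 each had an unadjusted p under 0.05, all higher in HET, where 3.81% of all tested genes did so.

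Of 23 pan-leukocyte genes tested, 22 were highest in HET replicate 2, and their median stood 0.16 above the WT mean in HET replicate 1 and 0.86 above it in HET replicate 2 (log2). Laptm5, a lysosomal protein gene of leukocytes, was at 5.84 and 6.36 TPM in WT and at 9.10 and 11.5 TPM in HET, and Dock2, a regulator of leukocyte migration, at 0.627 and 0.800 TPM and at 1.34 and 1.90 TPM. The authors' deposited table lists both as higher in HET, with log2 fold changes of 0.61 (Laptm5) and 0.84 (Dock2). Here 0 of 23 passed in the fit of all libraries (limma). In that fit 6 had an unadjusted p under 0.05, all higher, where 3.81% of all tested genes did so. Macrophage and dendritic cell genes, taken as a list, had like levels in both HET libraries, although 12 of 18 were highest in HET replicate 2. Their median stood 0.50 and 0.49 (log2) above the WT mean in HET replicates 1 and 2, and their summed level was 165 and 188 TPM in WT against 269.3 and 269.9 TPM in HET.

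**Figure D3:**
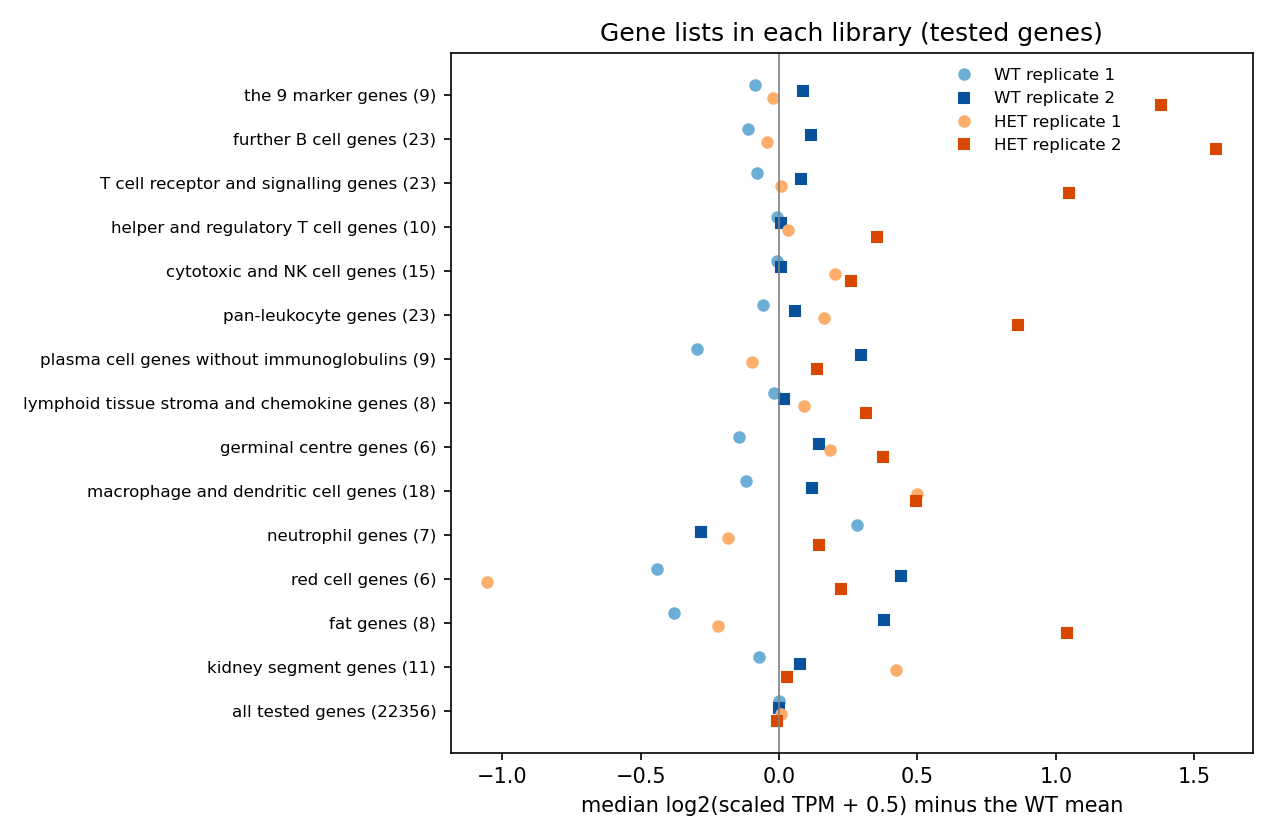
Median of log2(scaled TPM + 0.5) minus the WT mean for each gene list with at least 6 tested genes (number in brackets), in each library; all tested genes are at the bottom. HET replicate 2 stands at 1.58 for further B cell genes, 1.05 for T cell genes and 1.04 for fat genes, and HET replicate 1 at -0.044, 0.0065 and -0.22.

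Several genes typical of lymphoid tissue and of fat were also highest in HET replicate 2. Glycam1, which encodes a mucin of the high endothelial venules where lymphocytes enter lymph nodes, had 0 and 1 reads in WT, 0 reads in HET replicate 1 and 1989 reads (26.7 TPM) in HET replicate 2. A count of 0 allows up to 3 reads, and as only HET replicate 2 reached 10 reads the gene was not tested. Chst4, an enzyme gene of the same venules, and Madcam1, an adhesion molecule gene of gut-associated venules and follicular stroma, were also highest in HET replicate 2, at 0.376 TPM (30 reads) and 0.338 TPM (17 reads). Cxcl13, the chemokine that draws B cells into follicles, was at 0.119 and 0.540 TPM in WT and at 0.346 and 6.21 TPM in HET. Ltb, a cytokine gene of lymphocytes, was at 1.81 and 1.66 TPM and at 1.64 and 7.16 TPM. Neither passed with all 4 libraries. Without HET replicate 1 the log2 fold change was 3.06 for Cxcl13 and 1.78 for Ltb, and without HET replicate 2 it was 0.076 and -0.060. Ccl21a, the T cell zone chemokine, was at 2.72 and 3.82 TPM in WT and at 4.27 and 7.19 TPM in HET. Of the 12 lymphoid tissue stroma and chemokine genes in the table, 8 were highest in HET replicate 2. Their summed level was 59.1 and 74.6 TPM in WT, 71.8 TPM in HET replicate 1 and 109.8 TPM in HET replicate 2, most of it Cxcl12, which was at 52.5 to 67.0 TPM. Genes of fat, which surrounds the kidney and its lymph nodes, had a summed level of 266 and 416 TPM in WT, 316 TPM in HET replicate 1 and 648 TPM in HET replicate 2. Of these 8 genes, 7 were highest there, but only 2 by at least 2 times. The largest part of the sum was Cfd, at 144 and 201 TPM in WT and at 188 and 398.5 TPM in HET. Ucp1 went the other way, at 17.7 and 34.7 TPM in WT and at 11.1 and 8.70 TPM in HET. The part of these tissues in the levels of the 9 marker genes was not tested. Red cell genes did not follow, with a summed level of 1176 and 2299 TPM in WT against 803 and 1848 TPM in HET, and kidney segment genes in HET replicate 2 had a median of 0.030 relative to the WT mean.

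**Figure D4:**
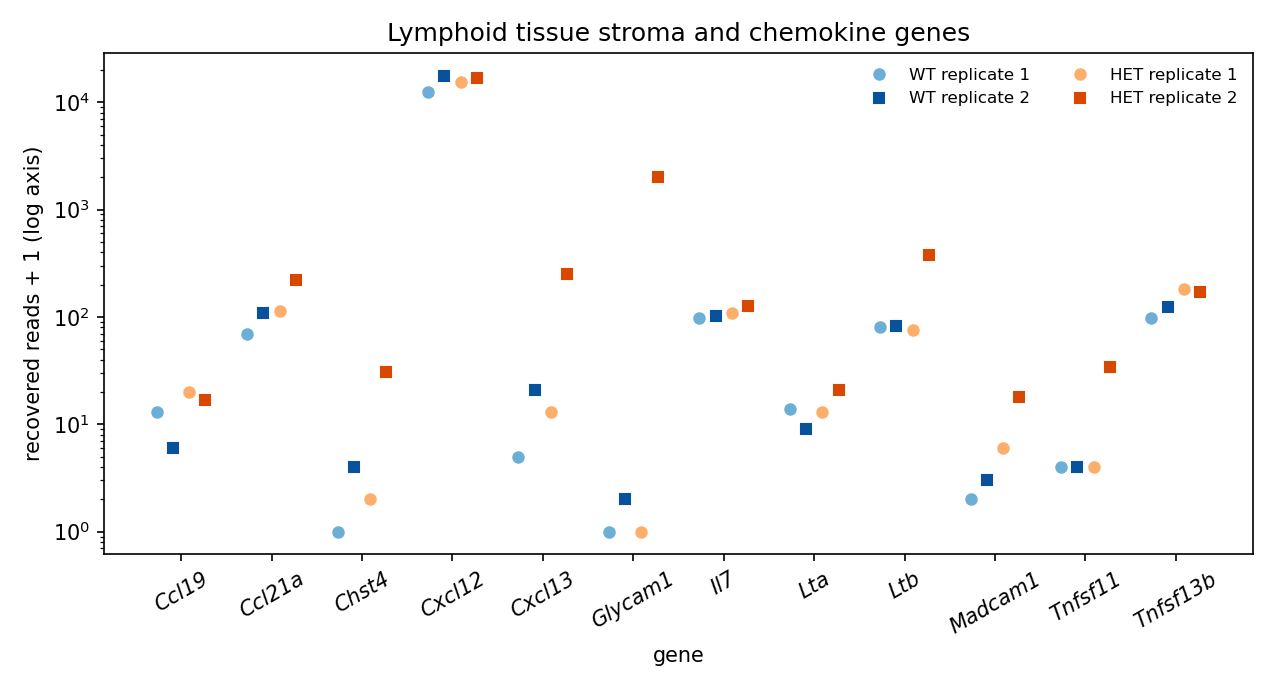
Recovered reads plus 1 (log axis) of the 12 lymphoid tissue stroma and chemokine genes in each library. Glycam1 stands at 1989 reads in HET replicate 2 and at 0 or 1 read in the other 3 libraries, while Cxcl12 and Il7 are nearly level.

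Of 6 lymphocyte precursor genes, 2 passed the filter on low levels and 0 were highest in HET replicate 2. Rag2 and Ptcra, which developing lymphocytes use to rearrange and assemble their receptors, had 0 reads in each of the 4 libraries, and Rag1 had 0, 1, 2 and 0 reads. Rgs13, a signalling regulator of germinal centre B cells, had 13 reads in HET replicate 2 and 0 in the other 3 libraries, and was not tested. Of 6 tested germinal centre genes, 4 were highest in HET replicate 2, but 0 by 2 times. Bcl6 was at 7.56 and 22.8 TPM in WT and at 8.13 and 29.3 TPM in HET. S1pr2 was at 1.02 and 1.38 TPM in WT and at 1.63 and 1.61 TPM in HET. Plasma cell genes did not follow HET replicate 2 alone. Jchain, which joins secreted IgM and IgA, was at 34.7 and 96.5 TPM in WT and at 17.1 and 85.1 TPM in HET, so that replicate 2 was high in both genotypes.

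Profiles over the 4 libraries were compared by their root mean square distance on the log2 scale, among 12774 genes with a mean of at least 1 TPM. Nearest to the mean profile of Cd79a, Cd79b and Ms4a1 were Pla2g2d (0.18), Fcmr (0.22), H2-Ob (0.23), Spib (0.24) and Cd37 (0.25). Pla2g2d, Fcmr, H2-Ob and Spib were under 1 TPM in every library but HET replicate 2, so they reached that mean only through it. Cd37 was at 0.642 and 1.18 TPM in WT and at 0.763 and 4.45 TPM in HET. Its mean without HET replicate 2 was also under 1 TPM. All of these genes thus met the filter only through the library in which the B cell genes were high. Nearest to that of Cd3d and Cd3e were Cd53 (0.040), Ifi202b (0.043), Spn (0.066), Gimap3 (0.068) and Slc1a5 (0.070). Pla2g2d, a secreted phospholipase gene, was at 0.336 and 0.513 TPM in WT and at 0.178 and 4.03 TPM in HET. Both mean profiles had their highest value in HET replicate 2, at 1.84 and 0.64 on the centred log2 scale. This follows from their genes, each of which was highest there.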

How the data were processed

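RNA-seq of 4 pooled kidney libraries was used, 2 per genotype. The authors deposited TPM per gene over exons on mm10, from alignments marked unique per the file headers. The authors used DESeq, DESeq2 and edgeR, per the submitters' processing notes, which give no versions. The sources used here name no aligner, counter or strand setting. A second table, the authors' deposited table of 97 genes, gives log2 fold changes, p-values and a score (the test statistic) of their own comparison. TPM times exon length gave whole reads for 100% of values (tolerance 0.001 reads), which served for the scaling by trimmed means (TMM), the filter (in 2 libraries at least 10 reads at median depth, and at least 15 over all 4) and the counting intervals. Scaled TPM were tested as log2(TPM + 0.5) with limma 3.58.1 (trend, robust; R 4.3.3), with Benjamini-Hochberg adjustment over 22356 genes and a threshold of 0.1. The steps were tested on simulated data with 200 changed genes and the same spread between libraries for all genes (dispersion 0.012). There 218 genes were called, 39 of them falsely, a larger share than the threshold of 0.1. With no gene changed, 0 were called. Genes with a wider spread between pools were not simulated. Chi-square tests between replicates found no library deposited more than once. The 9 genes and the lists were chosen with earlier results of these data known. Genes named beside the 9 come from those lists, from the nearest profiles, or were picked after their values were seen to show genes that followed the pattern and genes that did not. Some results are not reported here. Alternatives covered the pseudocount, scaling, filter, moderation, limma-voom, the replicate block and each library left out.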

Additional observations from a re-analysis of the deposited data

How the results depend on the processing

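Of 111 log2 fold changes of the 9 genes under 13 alternatives, 102 kept their direction and side of the threshold, 1 passed it and 8 changed sign. Without scaling, which moved the median of all genes to 0.20, Cd8a was at 0.10 and Nkg7 at 0.11, both below that shift. Leaving out WT replicate 1 put Cd8a at 0.19, and leaving out HET replicate 1 put Cd8a at 0.36, Nkg7 at 0.135 and Ms4a1, then past the threshold, at 2.23. Leaving out HET replicate 2 put Cd79a at -0.28, Ms4a1 at -0.17 and Cd3e at -0.023. With each library left out in turn, Cd79a ran from -0.28 to 2.61, Cd79b from 0.016 to 2.36, Ms4a1 from -0.17 to 2.23, Cd3e from -0.023 to 0.88, Cd8a from -0.43 to 0.36 and Nkg7 from -0.30 to 0.135; the median of the 9 ran from -0.023 to 1.38, the number of the 9 called from 0 to 1, and the number of all genes called from 0 to 65 against 2. All genes called were 0 with no filter, 5 with the stricter filter on reads (where only Cd4, Cd8a and Ptprc were tested), 1 without robust moderation, 0 with limma-voom and 0 with the replicate block. Same-numbered libraries deviated together with a correlation of 0.123 over 22356 genes, and the labels do not say that a number marks a pair; with the block, 0 of the 9 were called and their lowest limma adjusted p was 0.529. Outside the fit without HET replicate 1, the lowest adjusted p of any of the 9 was 0.399. The cause of these shifts was not tested. Cd79a, Cd79b, Ms4a1, Cd3d, Cd3e, Cd8a and Nkg7 had under 50 reads in at least 1 library, which limits their precision there. Groups of 2 pools are too small to test a single library for standing apart.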

Other observations

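Among genes with at least 100 reads in HET replicate 2, leaving out immunoglobulin and T cell receptor segments, those with the largest ratio to the highest other library were chosen after their values were seen. Marco, a scavenger receptor of macrophages that line lymphoid sinuses, followed Glycam1, with 1, 3, 4 and 1043 reads in WT replicates 1 and 2 and HET replicates 1 and 2. Cd209b, a lectin of marginal zone and sinus macrophages, had 17, 46, 20 and 693 reads. Cd5l, a secreted macrophage protein gene, had 7, 9, 4 and 150 reads. Ms4a1 ranked 9 in this order, with the B cell genes Pax5, Fcrl1, Fcer2a and Cd22 among those ahead of it. The summed level of the macrophage list did not show this pattern, at 269.3 TPM in HET replicate 1 and 269.9 TPM in HET replicate 2. Of its 18 tested genes, 12 were highest in HET replicate 2, where 27.4% of all tested genes were. Only 1 of them, Cd163, was there at least 2 times the highest other library.

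Trac, at 8.52 to 27.5 TPM, lay in each library above the beta chain constant region genes Trbc1, at 0.842 to 3.85 TPM, and Trbc2, at 1.19 to 6.53 TPM, and above Cd3d, at 0.434 to 1.32 TPM. Trac and Trbc1 were lowest in HET replicate 1, while Trbc2 and Cd3d were lowest in WT replicate 1.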
